A study of Mus musculus with 2 samples.

Results

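The cathepsins are the main proteases of the lysosome, and 10 of their genes (Ctsa, Ctsb, Ctsc, Ctsd, Ctse, Ctsh, Ctsk, Ctsl, Ctss and Ctsz) were followed here among the 31709 genes on the arrays. They were chosen by gene name in the scanner output, which gave 12 probes that are not controls. The arrays held RNA from BaF/3 (#BEB1), a single clone obtained from Ba/F3 cells that carry a retroviral cDNA library of CG4 cells after repeated sorting for binding of an Ecrg4–Fc fusion protein, and from the parental Ba/F3 cells, an interleukin-3-dependent line of mouse pro-B cells. Cy3-labelled RNA of each cell line was hybridised to 1 Agilent 1-colour array, and both arrays were on 1 slide. There is therefore no replicate check of any difference, no test was run, and the differences below are sizes.

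The cell line behind each array is in doubt, because the authors' table of normalised values and the scanner output name it in opposite ways. Over 39429 probes, the BaF/3 (#BEB1) column of the table followed the scanner file given for the parental cells (Pearson r = 0.999996) more closely than the one given for BaF/3 (#BEB1) (r = 0.982286). The parental column likewise followed the file given for BaF/3 (#BEB1) (r = 0.999998). Array A below is BaF/3 (#BEB1) in the table and parental in the scanner output, and array B is the reverse. Every difference is a log2 value on array A minus that on B. Its sign therefore reads BaF/3 (#BEB1) over parental by the table, and the opposite by the scanner output. Olr1 encodes LOX-1, the receptor cloned from BaF/3 (#BEB1), and had a signal of 12962 on array A and 289 on B, a difference of 5.01. No other measured gene lay further towards array A. As LOX-1 was cloned from BaF/3 (#BEB1), the table's assignment is the likely one, and the scanner output's would run against the direction that the study describes for LOX-1. That description may rest on the same arrays, so the files do not settle the assignment and array names are used throughout.

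Cathepsins are made as inactive precursors, carried to the lysosome mostly by mannose 6-phosphate receptors and activated there by cleavage at acidic pH. Most of them (B, C, H, K, L, S and Z) are cysteine proteases of the papain family, cathepsins D and E are aspartic proteases, and cathepsin A is a serine carboxypeptidase. In cells of the blood system they digest proteins taken up by endocytosis, trim the invariant chain from MHC class II molecules and activate the serine proteases of granules. Cystatins and stefins are their protein inhibitors.

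The signals were scaled to the 75th percentile of the array, 1506 on array A and 1080 on B, and put on a log2 scale. A probe was well above background by the scanner's own mark, which 19480 probes (49.4%) carried on array A and 19659 (49.9%) on B. No spot was saturated. A gene counts as measured when both arrays hold a well-above-background signal for 1 of its probes or more. Its difference is then averaged over those probes. Of 211 bright probes printed at 10 spots, the median SD of the difference between spots was 0.05 on the log2 scale, and this covers the array but not the cultures. The scanner's error model, which adds a share proportional to the signal, gave an error of 0.20 for the difference of a bright spot. Signals of different probes depend on their sequence and were not set against each other.

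The pro-B label was set against marker genes. Of 12 early B-lineage genes on the arrays, Cd79b (difference of −2.30), Vpreb1 (−1.39) and Vpreb3 (−1.38) were measured. Vpreb1 and Vpreb3 had dim probes, and under a different background correction (normexp) they were at −0.94 and −0.92, short of 2-fold. The other 9, Cd79a, Pax5 and Ebf1 among them, did not stand well above background on either array. The receptor subunits for interleukin-3 were measured on both arrays, with Il3ra at 0.40, Csf2rb at −1.86 and Csf2rb2 at −1.60. Csf2rb and Csf2rb2 are near-identical copies, so their probes may share signal.

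The 10 cathepsin genes split by size and by detection. Differences could be given for 7 of them, and the largest were 3.15 for Ctss, which was brighter on array A, and −1.44 for Ctsd, which was brighter on B. Of these 7, 1 was 2-fold or more higher on array A, against 3.85% of all 14815 measured genes, and 1 was 2-fold or more higher on array B, against 7.30%. The other 5, Ctsc, Ctsz, Ctse, Ctsb and Ctsa, lay between 0.85 and −0.63. The median over the 7 genes was 0.11, beside −0.02 over all measured genes, whose 10th and 90th percentiles were −0.84 and 0.66. Ctsh, Ctsk and Ctsl did not stand well above background on either array. A lower level in RNA of a whole culture can come from fewer cells that express a gene or from less RNA per cell, and these cannot be told apart.

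**Figure D1:**
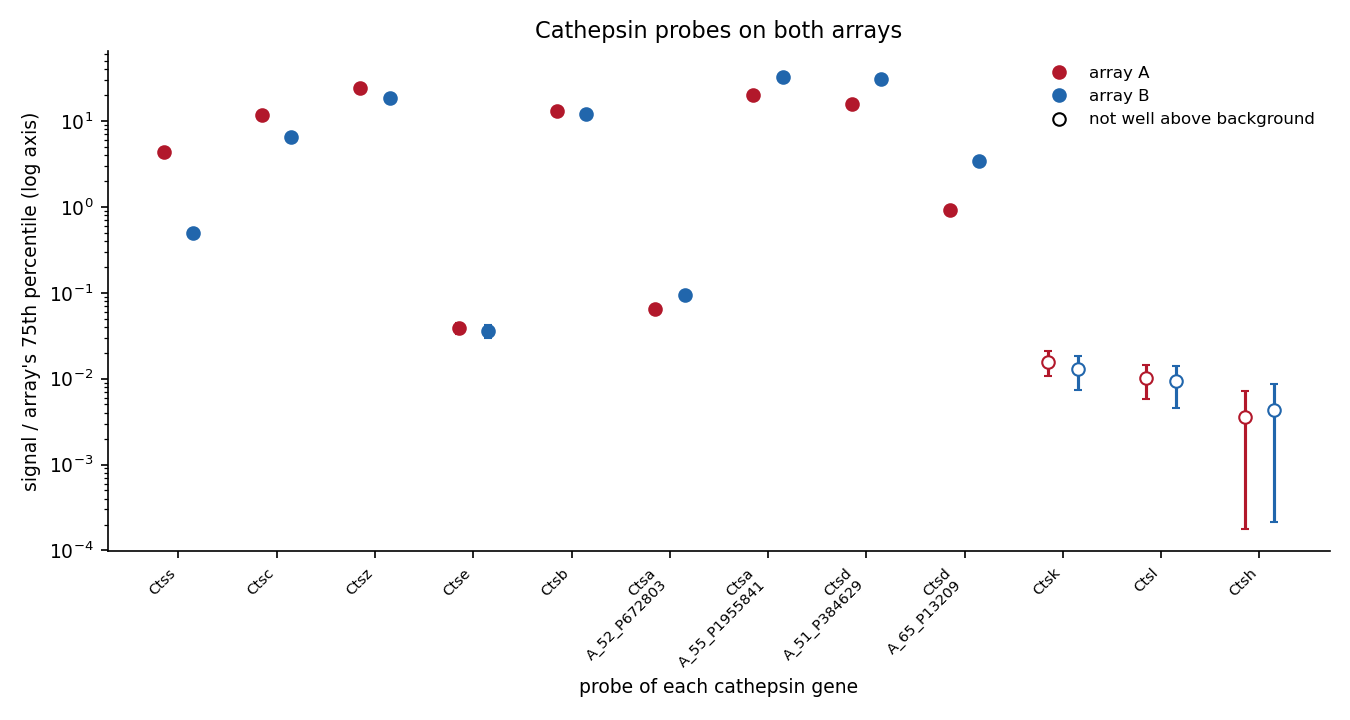
Signal of each cathepsin probe divided by the 75th percentile of its array, on a log axis, with array A left of array B. Bars are the scanner's error of the spot (hidden by the point where small, and cut short at the low end of the dimmest spots), and open points are not well above background. Points are to be compared between the arrays within a probe only. Ctss stands apart with 6626 on array A and 536 on B before scaling, and the 3 genes at the right are dim on both arrays.

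Among the cysteine proteases, Ctss had the widest gap. Cathepsin S cuts the invariant chain in antigen-presenting cells and stays active at neutral pH. The probe had a signal of 6626 on array A and 536 on B, which are log2 levels of 2.14 and −1.01 after scaling. The difference was 3.15 with a scanner error of 0.20, an 8.87-fold gap, and only 27 measured genes lay further towards array A. The gap was far wider than the spread between spots, and it ran from 3.02 to 3.44 over all the ways of processing that were tried. The Ctss probe lies at chr3:95360245-95360304 on the plus strand in mm9. Its first 30 bases are shown because the widest cathepsin difference rests on this 1 probe.
Ctss probe: cctgttgtctagtgttttctaataaccatt

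The genes around Ctss did not share its gap. Within 100 kb of the probe, 4 of 7 neighbouring genes were measured, and they lay between −0.31 (Golph3l) and 0.42 (Arnt). The nearest cathepsin gene is Ctsk, whose probe is 47.0 kb away at chr3:95313165-95313224. Cathepsin K is the collagen-degrading protease of osteoclasts. Its signal was 23.8 on array A and 13.9 on B, and neither was well above background. Of 5 osteoclast markers, Oscar was measured, at −0.26, Itgb3 was well above background on array B alone, and Calcr, Dcstamp and Ocstamp were dim on both arrays.

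Ctss is well known from macrophages and dendritic cells, so the markers of these cells are given beside it. Of 16 macrophage and monocyte genes, 7 were measured, with a median of −0.46. Of these 7, 1 was 2-fold or more higher on array A, beside 3.85% of all measured genes. That gene was Fcgr1, a high-affinity Fc receptor, with a difference of 2.23. Adgre1, which encodes F4/80, was at 0.90 and Csf1r, the receptor for colony-stimulating factor 1, at −0.46. Mpeg1 was at −0.93, Ly6c1 at −0.88, Ccr2 at −0.80 and Itgam at 0.05. Lyz1 and Lyz2 were well above background on array B alone, and Cd14, Marco, Mrc1, C1qa, C1qb, C1qc and Trem2 on neither array. Summed over the 16 genes, the scaled signal was 9.47 on array A and 6.87 on B, but without Fcgr1 it was 4.24 on array A and 5.76 on B. Bright probes dominate such sums. Of 6 dendritic cell genes, Siglech (−0.22) and Ccr7 (−0.65) were measured, and Flt3, Itgax, Zbtb46 and Xcr1 were not. The summed signal was 24.5 on array A and 28.7 on B. Nearly all of it came from Siglech, with a signal of 73085 on array A and 61108 on B at its brightest probe. The part of such cells in the Ctss difference was not tested.

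Ctsc was the next gene towards array A. Cathepsin C, also called dipeptidyl peptidase I, removes dipeptides from the amino ends of proteins and so activates granzymes, mast cell proteases and the serine proteases of neutrophils. The probe lies at chr7:95458436-95458495 on the plus strand in mm9. Its signal was 17595 on array A and 7018 on B, or log2 levels of 3.55 and 2.70. The difference of 0.85, a 1.80-fold gap with a scanner error of 0.20, fell short of 2-fold, and 878 measured genes lay further towards array A. When the arrays were scaled to their medians, it was 1.14 and passed 2-fold. A further probe, outside the rule by gene name but described in the scanner output as cathepsin C, lies 22.9 kb from the Ctsc probe. Its signal was 107 on array A and 61.8 on B, a difference of 0.31 with a scanner error of 0.25, and the sign turned with normexp, to −0.051. No direction can be given for this probe.

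A few genes of granule proteases that cathepsin C is known to activate were found in the marker lists, and they were picked after their values were seen. Prtn3, the gene of proteinase 3, had a difference of −3.20, and Elane, that of neutrophil elastase, one of 0.10. Cathepsin G, a serine protease of granules despite its name, is encoded by Ctsg, with a signal of 52.4 on array A and 132 on B and a difference of −1.81. In the mast cell list, Cma1, a chymase gene, was at −2.95, and the protease genes Tpsb2, Tpsab1 and Mcpt4 did not reach well above background on either array. These were dim probes, and with normexp Prtn3 was at −2.24, Ctsg at −1.06 and Cma1 at −1.74. Granzyme genes were not in the lists.

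Ctsz and Ctsb were bright on both arrays with small gaps. Cathepsin Z, also called cathepsin X, takes single residues from the carboxyl end of proteins and binds integrins. Its probe, at chr2:174253228-174253287 on the minus strand in mm9, had a signal of 36067 on array A and 19866 on B, a difference of 0.38. Cathepsin B cuts both inside proteins and from their carboxyl ends. Its probe, at chr14:63761906-63761965 on the plus strand, had a signal of 19525 on array A and 13036 on B, a difference of 0.10. The scanner error of each was 0.20, so the Ctsb gap was within it. The differences of Ctse and Ctsb, 0.11 and 0.10, lie within the scanner error of each other and have no order.

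The other cysteine proteases gave no usable level. Cathepsin L degrades the invariant chain in thymic epithelium, and its probe had a signal of 15.2 on array A and 10.2 on B. Cathepsin H is an aminopeptidase, and its probe had a signal of 5.41 on array A and 4.63 on B. Probes counted as well above background reached down to 27.6 on array A and to 22.9 on B, so Ctsh, Ctsk and Ctsl lay under these on both arrays and have no fold. A dim probe shows only that its target was not detected here. In a list of 13 further genes named as cathepsins, Ctsg was measured and the other 12, among them Ctsf, Ctso and Ctsw, did not stand well above background on either array.

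Ctsd was the cathepsin gene with the widest gap towards array B. Cathepsin D is the main aspartic protease of the lysosome and digests proteins at acidic pH. It had 2 probes. The probe A_51_P384629, at chr7:149561962-149562021 on the minus strand in mm9, had a signal of 23540 on array A and 33524 on B, a difference of −0.99. The probe A_65_P13209 had a signal of 1368 on array A and 3654 on B, a difference of −1.90. Both were brighter on array B, and the mean of −1.44 is a 2.72-fold gap that 428 of the measured genes exceeded towards array B.

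The size of the Ctsd gap depended on the probe. The probes lay 0.91 apart on the log2 scale, while the median range over 3152 genes with more than 1 measured probe was 0.27, and 243 of these genes had a range at least as wide as that of Ctsd. Taken by the brighter probe alone, Ctsd was at −0.99 and just short of 2-fold. The 60 bases of A_65_P13209 lie over 1659 bases at chr7:149566847-149568505 of mm9, so this probe crosses at least 1 intron, while the other probe is continuous. The first 30 bases of both are shown because the 2-fold call of Ctsd rests on which of them is used.
A_51_P384629: gaaggagcaagaggacagaagcaaaactat
A_65_P13209: actgtatcggttccatgtaagtctgaccag

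Ctse, the gene of the other aspartic protease, was near the lower limit. Cathepsin E resides in endosomes and is known from the stomach lining and from immune cells. The probe lies at chr1:133571990-133572049 on the plus strand in mm9. Its signal was 58.1 on array A and 38.6 on B, and the difference of 0.11 was smaller than its scanner error of 0.33. With another background correction (normexp, which models the local background) the sign turned, to −0.10. No direction can be given for Ctse.

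Ctsa was modestly higher on array B. Cathepsin A, the serine carboxypeptidase of the group, is also the protective protein that holds lysosomal beta-galactosidase and neuraminidase in a complex. The probe A_55_P1955841, at chr2:164665023-164665082 on the plus strand in mm9, had a signal of 30388 on array A and 35098 on B, a difference of −0.69. The probe A_52_P672803, at chr2:164666433-164666492, had a signal of 96.5 on array A and 103 on B, a difference of −0.57. The probes differed by 0.12, less than the scanner error, and their mean of −0.63 is a 1.54-fold gap.

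**Figure D2:**
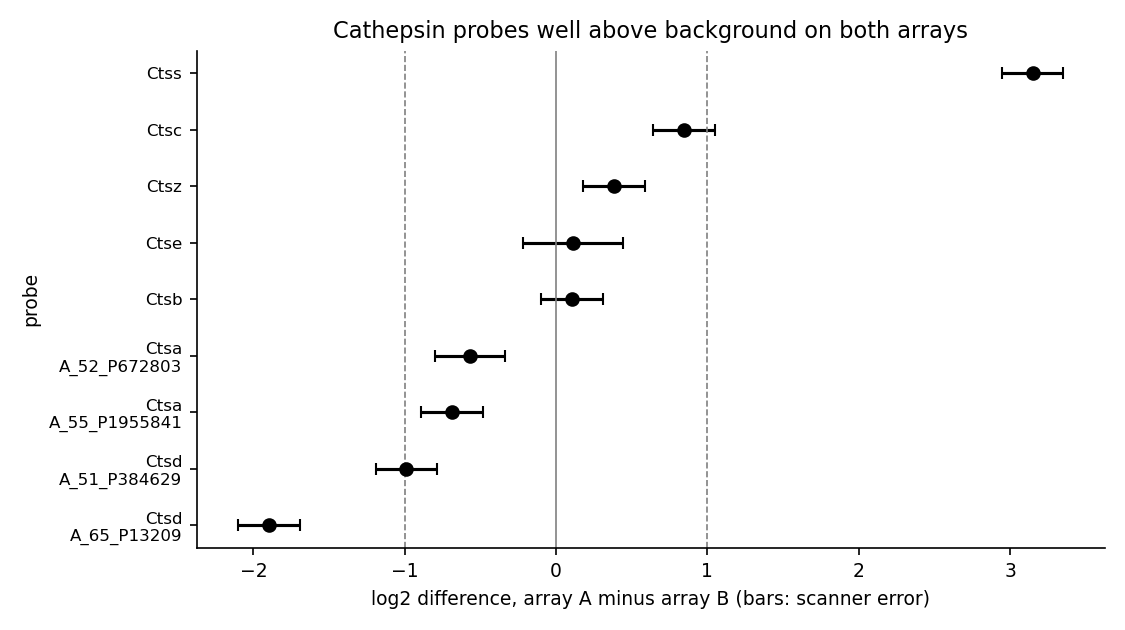
Log2 difference (array A minus B) of the cathepsin probes that were well above background on both arrays. Bars are the scanner error of the difference, and dashed lines mark 2-fold. Ctss at 3.15 lies outside the lines on the side of array A, and of the Ctsd probes one is at −1.90 and the other at −0.99.

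**Figure D3:**
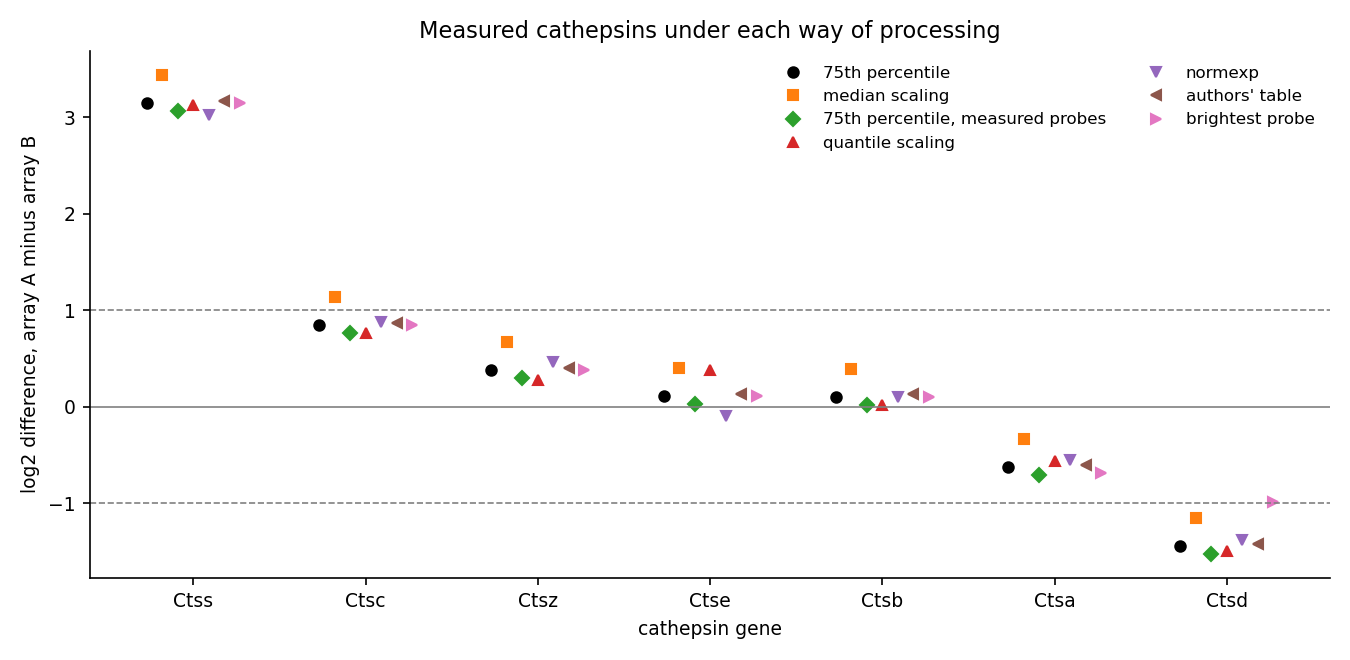
Log2 difference (array A minus B) of the 7 measured cathepsin genes under different ways of scaling and background correction, with dashed lines at 2-fold. Ctss keeps to 3.02 and above, Ctsc passes 2-fold with median scaling (1.14), and Ctsd falls just short with the brightest probe (−0.99).

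Promoters were searched for motifs that are known from lysosomal and immune genes. RefSeq promoters of GRCm38.p6, each 250 bases before and 50 bases after a start, were at hand for 7 of the 10 genes. Of these, 8 promoters were searched on both strands. Ctsb, Ctse and Ctsh had none, so the measured genes searched were Ctsa, Ctsc, Ctsd, Ctss and Ctsz. The palindrome TCACGTGA, the core of the CLEAR element that TFEB and its relatives bind, was in the promoters of Ctsa and Ctsd and in 0.974% of all 32851 promoters. It contains the E-box CACGTG, which was in 7.15% of all promoters and also in that of Ctsl. The windows around the matches are shown because Ctsa and Ctsd are the measured cathepsin genes that were higher on array B, with the motif in capitals.
Ctsa, 13 bases before the start, chr2:164833749-164833778, plus strand: tgagcaaactgTCACGTGAtgcagatgctc
Ctsa, 4 bases after the start, chr2:164833766-164833795, plus strand: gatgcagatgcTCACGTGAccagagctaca
Ctsd, 99 bases before the start, chr7:142387908-142387937, minus strand: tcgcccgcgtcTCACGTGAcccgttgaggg
Of all genes with TCACGTGA in a promoter, 203 were measured, and 8 were 2-fold or more higher on array A and 10 on B. Over all measured genes these shares were 3.85% and 7.30%. The median difference of the 203 genes, −0.01, lay beside −0.02 for all measured genes.

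The promoter of Ctss held another pair of motifs. GAAANNGAA, a core of interferon response elements, was there and in 8.56% of all promoters. GAGGAAGT, a site form of the ETS factor PU.1 of myeloid and B cells, was in the promoters of Ctss and Ctsc and in 3.2% of all promoters. It is read here on the other strand, as ACTTCCTC, and the sites in Ctss do not overlap although their windows do. The windows are shown because these are the cathepsin genes with the largest differences towards array A.
Ctss, 21 bases before the start, chr3:95526754-95526783, plus strand: agtctttaaatGAAACCGAAatgaaagttc
Ctss, 2 bases before the start, chr3:95526773-95526802, plus strand: aatgaaagttcACTTCCTCattgtggatgc
Ctsc, 151 bases before the start, chr7:88277923-88277952, plus strand: gtcactaactaACTTCCTCaggccacctcg
Over all measured genes with GAAANNGAA in a promoter, 787 in number, 38 were 2-fold or more higher on array A and 57 on B, with a median of −0.0016. Of the 367 with GAGGAAGT, 16 were 2-fold or more higher on array A and 50 on B, with a median of −0.04. Over all measured genes the larger count also lay on array B, with 3.85% towards array A and 7.30% towards B. The 50 of 367 towards array B is a larger share than this 7.30%, while Ctss and Ctsc lay towards array A. With median scaling the GAGGAAGT median was 0.25, and the counts were not made there. A match is a description of the sequence and does not show that a factor binds there.

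Most cathepsin inhibitors with a wide gap were stefin A genes, which lay on the side of array B. Of 20 inhibitor genes on the arrays, 12 were measured, and 1 was 2-fold or more higher on array A and 6 on B. These shares stand beside 3.85% and 7.30% of all measured genes. The median of −1.19 rests on the stefin A genes. Outside them, Cst7, Serpinb1a and Cst3 had negative differences and Serpina3g, Cstb and Serpinb6a positive ones. Summed over the list, the scaled signal was 80.4 on array A and 80.2 on B. The stefin A genes form a cluster of near-identical copies, and the signal of 1 probe can hold RNA of several. All 6 that were measured had a negative difference, and 5 were 2-fold or more higher on array B. Stfa3 had a signal of 636 on array A and 2976 on B, a difference of −2.71. Stfa2 was at −1.91, Stfa1 at −1.88, Csta3 at −1.78 and Stfa2l1 at −1.53, and Csta2 at −0.84 fell short of 2-fold. Probes of such copies share sequence, so these are not independent values.

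Among the cystatins, Cst7 had the widest measured gap. It encodes cystatin F, an inhibitor of immune cells that acts on cathepsin C. Its signal was 1590 on array A and 4491 on B, a difference of −1.98. Ctsc, the gene of its target, had a difference of 0.85, and both keep their sign under every scaling tried. Cst3, which encodes the secreted inhibitor cystatin C, was bright on both arrays, with a signal of 20815 on array A and 17955 on B and a difference of −0.27, which was 0.03 with median scaling. Cstb, which encodes stefin B, the inhibitor of the cytosol, had a signal of 21546 on array A and 9235 on B and a difference of 0.74, which passed 2-fold with median scaling at 1.03. Cst10 was well above background on array B alone, where it was at least 6.40-fold higher.

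Serpins gave the only inhibitor that was 2-fold higher on array A. Serpina3g, an intracellular serpin of mouse blood cells that inhibits cysteine cathepsins, had a signal of 54331 on array A and 18770 on B, a difference of 1.05. It was at 0.97 with quantile scaling and so just short of 2-fold. Serpinb6a and Serpinb1a, whose products inhibit cathepsin G, were at 0.47 and −0.53.

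Most measured neutrophil and mast cell markers lay on the same side as the stefin A genes and Cst7. The macrophage and monocyte genes were mixed, with a median of −0.46. The stefin A genes and Cst7 were higher on array B, as were 7 of 8 measured neutrophil genes, whose median was −3.16. Summed over its 10 genes, the neutrophil list had a scaled signal of 0.892 on array A and 23.9 on B. Its brightest gene on array B was S100a9, with a signal of 18995 there and 444 on A. The mast cell and basophil list had a summed signal of 13.0 on array A and 35.7 on B. This sum rests mainly on Gata2, with a signal of 16552 on array A and 31423 on B. In this list 3 of 4 measured genes were 2-fold or more higher on array B, and Hdc, the gene of histidine decarboxylase, was at 1.67. Fcer1a was detected on array B alone, and the other 5 genes of the list were dim on both arrays. The part of these cells or of their genes in the inhibitor differences was not tested.

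In the 6 other lysosomal lists together, 5 of 131 measured genes were 2-fold or more higher on array A and 6 on B. These 11 genes are 8.40%, beside 11.2% of all measured genes in either direction. Among 40 measured genes of lysosomal hydrolases, 0 were 2-fold or more higher on array A and 1 on B, with a median of −0.19. That gene was Pcyox1, which encodes prenylcysteine oxidase, at −1.31. Acp5, which encodes tartrate-resistant acid phosphatase, was well above background on array B alone, with a log2 difference of −1.59 or lower. Among 6 other lysosomal proteases the median was −0.33, and Scpep1, a serine carboxypeptidase gene related to Ctsa, was alone in passing 2-fold, with a signal of 56604 on array A and 9852 on B at its brightest probe and a difference of 2.04. Scpep1 and Ctsa thus had gaps of opposite sign.

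Genes of the lysosomal membrane included a pair with wide gaps towards array B. Of 28 measured, 1 was 2-fold or more higher on array A and 3 on B, beside 3.85% and 7.30% of all measured genes. The median was −0.11. Abca2, a lipid transporter gene, was at −2.68, and Abcb9, which encodes a peptide transporter of the lysosome, had a signal of 2101 on array A and 8462 on B and a difference of −2.49. Cd68, a macrophage-rich membrane glycoprotein gene, was at −1.26, and Mfsd8, the gene of a lysosomal transporter, at 1.52. The Cd68 signal was dim, with 74.7 on array A and 128 on B.

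The proton pump that acidifies the lysosome and so activates cathepsins was measured through 17 genes, of which 13 had a positive difference. Of these 17, 1 was 2-fold or more higher on array A and 1 on B, beside 3.85% and 7.30% of all measured genes. The median was 0.38, beside −0.02 for all measured genes. Those past 2-fold were Atp6v1g1, of the cytosolic part of the pump, at 1.01, and Atp6v0a2, of its membrane part, at −1.04. Atp6v0d2, another membrane part, was well above background on array A alone, where it was at least 1.75-fold higher.

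Genes that sort lysosomal enzymes and those that control their transcription had small median differences. All 23 listed sorting genes were measured, with a median of 0.11. Of these, 2 were 2-fold or more higher on array A and 0 on B, beside 3.85% and 7.30% of all measured genes. Those on array A were Igf2r, at 1.16, and Vps35, at 1.07. Igf2r encodes the larger mannose 6-phosphate receptor, and Vps35 is of the retromer that returns such receptors to the Golgi. Of 17 measured genes of the MiT/TFE factors and their regulators, Tfeb was alone in passing 2-fold, at −1.21, with a signal of 83.4 on array A and 138 on B, and the median was 0.06. TFEB is one of the factors that bind the CLEAR element. Of the genes of its relatives, Tfe3 was at 0.50 and Mitf at −0.20, and Tfec was not well above background on either array. At its brightest probe, Tfe3 had a signal of 6645 on array A and 3711 on B.

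**Figure D4:**
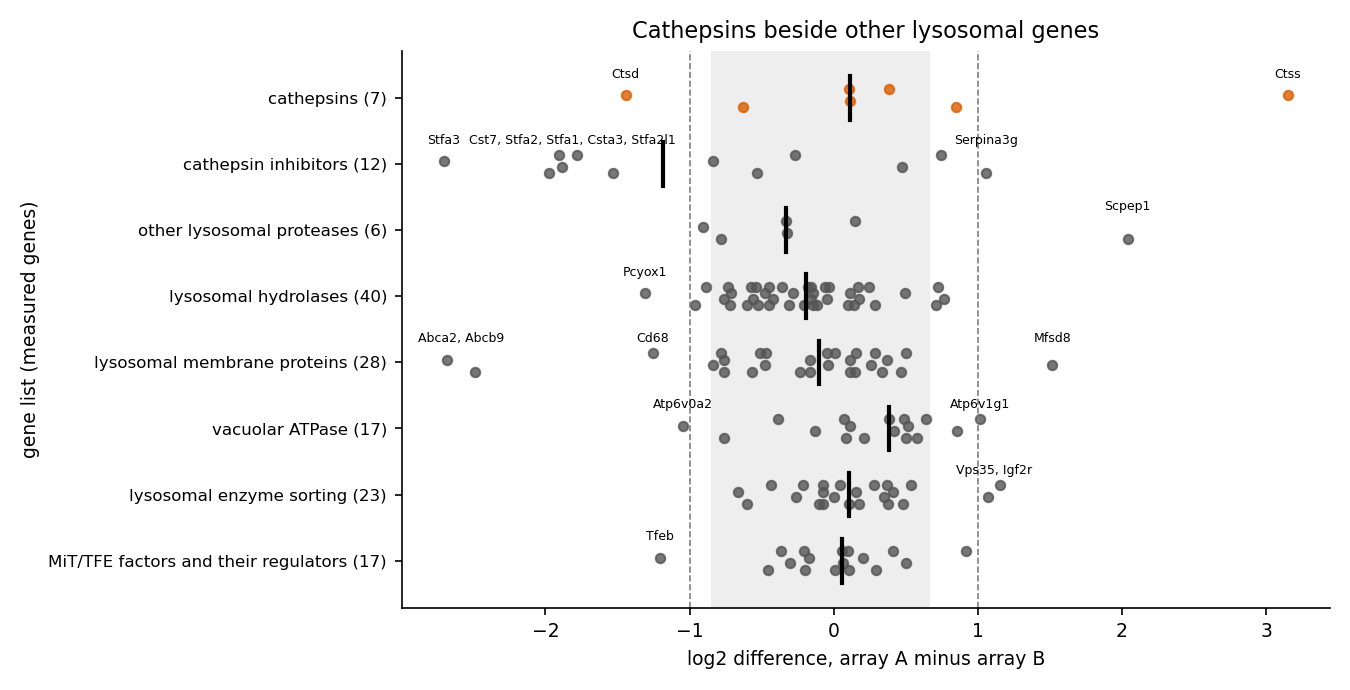
Log2 difference (array A minus B) of measured genes in each list, with list sizes in parentheses. Each point is a gene, black bars are list medians, dashed lines mark 2-fold and the grey band runs from the 10th to the 90th percentile of all measured genes (−0.84 to 0.66). Of the lists plotted, the inhibitors have the lowest median, −1.19, and this list includes the near-identical stefin A genes. Of the genes plotted, Ctss has the widest gap towards array A, 3.15.

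Some of these calls sat close to the 2-fold line. Among the cathepsins, their inhibitors and the other lysosomal lists, 21 genes were at least 2-fold apart, and 12 stayed so under every way of processing tried. These were Ctss, Ctsg, the inhibitor genes Cst7 and 5 of stefin A, and Scpep1, Pcyox1, Abca2 and Abcb9. The other 9, Ctsd, Serpina3g, Cd68, Mfsd8, Atp6v0a2, Atp6v1g1, Igf2r, Vps35 and Tfeb, came under 2-fold in at least 1 way of processing without a change of sign. Scaling to the median of each array moved the median of all measured genes to 0.27, and the list medians with it, to 0.10 for the hydrolases, 0.19 for the membrane genes and −0.04 for the other proteases. The median of the MiT/TFE list was −0.08 with normexp. No direction is therefore given for these 4 lists.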

How the data were processed

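Total RNA of each cell line was labelled with Cy3 and hybridised to an Agilent whole mouse genome array. The authors deposited the spot intensity of each array, read with Agilent Feature Extraction 9.5.1.1, and a table of log2 values made from it after a floor and division by the 75th percentile. The table and the scanner output name the arrays in opposite ways, so the files do not settle the direction. The table's columns had medians of −5.44 (BaF/3 (#BEB1)) and −5.20 (parental cells) and were not centred per gene.

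Leaving out control spots gave 43020 spots of 39429 probes. Signals were divided by the array's 75th percentile, and replicate spots were averaged on the log2 scale. RefSeq of GRCm38.p6 named 26049 probes by accession and 3200 by symbol, with 930 more through older symbols, while 9250 remained under the scanner output's name. Probe positions are in mm9, as that output gives them. For genes detected on 1 array, bounds used the limits of 27.6 (array A) and 22.9 (array B), or the dim probe's signal if higher. All 10 cathepsins are described. From each list the genes 2-fold or more apart are named, up to 4 per direction, with every measured inhibitor. Some genes that this rule takes are left unreported. Markers of cell types and promoter comparisons outside this rule were picked after their values were seen. The members and lists were chosen with earlier results of these data known. The steps were tested on simulated data. Python 3.11.15, numpy 2.4.6 and pandas 2.3.3 were used, and R 4.3.3 with limma 3.58.1 ran normexp (offset 50) and quantile scaling. Other alternatives were median scaling, filters on dim probes, dropping outlier spots, other summaries over probes, the authors' table and a 3-fold threshold.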

Additional observations from a re-analysis of the deposited data

How the results depend on the processing

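Scaling to the median added 0.29 to every difference and turned the balance between the arrays. All measured genes then had a median of 0.27, and 1313 genes passed 2-fold towards array A and 587 towards B. The share towards array A among these was 69.1%, beside 34.5% in the values reported. The cathepsins had a median of 0.40, and 2 passed 2-fold towards array A. With the 75th percentile of measured probes alone the medians were 0.028 for the cathepsins and −0.10 for all genes, and with quantile scaling the cathepsin median was 0.28. Normexp left 707 genes higher on array B and a median of −0.067. A looser filter on dim probes gave 1133 on array A and 1876 on array B of 16512 genes, and no filter 1491 and 2777 of 31709, with a median of −0.16. With the brightest probe, 0 cathepsins were 2-fold higher on array B. At 3-fold this count was also 0, and 156 genes on array A and 333 on array B passed. The median of all measured genes, close to 0 at −0.02, was also positive with quantile scaling (0.025) and in the authors' table (0.0051). The cathepsin median stayed positive throughout, and the cause of the changes was not tested. Counting genes at their bound changed no cathepsin value, as none has a bound. No paired analysis was possible because each cell line has 1 array. Dim signals limit Ctse, Ctsh, Ctsk and Ctsl most, and the number of arrays limits every value.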
